A study of Mus musculus with 24 samples.

Results

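The stimulation response of naive CD4 T cells was compared between mice with and without Trim28 in their T cells, as the genotype by stimulation interaction of every measured gene. The interaction is the response of knockout cells (stimulated minus unstimulated) minus the response of wild-type cells, on the log2 scale, so a value of 1 means that the response was higher by a factor of 2 in the knockout. It was computed from the 16 arrays of naive cells among the 24 arrays of the series, for 17054 genes. The groups were WT unstimulated, WT stimulated, CKO unstimulated and CKO stimulated cells, with 4 arrays each, all from female C57BL/6 mice aged 6 or 7 weeks. CKO stands for a conditional deletion of Trim28 in T cells, and WT for age-matched controls. The cells had been sorted as CD4+ and CD25- with a further marker of naive cells, and the stimulated groups received anti-CD3 and anti-CD28 for 13 h. The Cre driver is not named in the sources used here, nor whether each of the 4 arrays of a group stands for an animal of its own. P-values therefore measure only the spread among these samples, which may be technical. The remaining 8 arrays, of regulatory T cells, were not used in this comparison.

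Trim28 (also called KAP1 or TIF1beta) is a corepressor that KRAB zinc finger proteins bring to DNA, where it recruits histone deacetylases and the H3K9 methyltransferase Setdb1. Naive T cells are small, quiescent cells that recirculate between blood and lymphoid organs and keep a program of genes such as Klf2, S1pr1 and Il7r. Signals through the T cell receptor and CD28 switch this program off, start IL-2 production, and drive growth and entry into the cell cycle, in which E2F factors turn on the genes of DNA replication.

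Trim28 itself was measured first. Its level, as log2 signal relative to the array's 75th percentile, was 2.31, 2.47, 2.57 and 2.46 on the WT unstimulated arrays and 3.40, 3.86, 3.76 and 3.60 on the WT stimulated arrays. On the CKO arrays it was 0.58, 0.89, 1.00 and 1.29 before and 1.08, 1.05, 1.23 and 0.53 after stimulation. All 8 CKO arrays were below all 8 WT arrays, as their labels say, and the stimulated and unstimulated CKO arrays overlapped. The WT response was 1.20 ± 0.17 (SE) and the CKO response 0.03 ± 0.17, which gave an interaction of -1.17 ± 0.24 with a limma adjusted p of 0.0197. CKO cells thus had 2.85-fold less Trim28 signal at rest and 6.43-fold less after stimulation. The Trim28 interaction lost its call with normexp background correction, with quantile normalization, with the authors' normalized values, without both CKO replicate 2 arrays and where dim probes were not filtered. Whether its probe falls inside the deleted segment is not given in the sources used here.

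Most genes responded in both genotypes. Of the 17054 genes, 62.9% were called in WT (32.3% up, 30.7% down) and 61.1% in CKO (30.5% up, 30.6% down; limma, Benjamini-Hochberg adjusted p under 0.05 here and below), and the Pearson correlation of both responses was 0.917 across genes, which are not independent replicates. The interaction was called for 499 genes, or 2.93% of those tested, of which 285 (1.67%) were higher and 214 (1.25%) lower in CKO. A further set reached only an unadjusted p under 0.05, which 2784 genes (16.3%) met in all. The median interaction over all genes was -0.01 and the median standard error of an interaction 0.29.

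The 499 genes were sorted by how their responses compared. In 370 the CKO response was smaller than a called WT response or absent (blunted), in 31 it went further in the same direction (exaggerated), in 34 both responses were called in opposite directions (reversed), and in 64 the response was called in CKO alone (gained). Blunted genes made up 74.1% of those called, 132 of them induced and 238 repressed in WT. The CKO response was itself still called in 272 of the 370. These classes are descriptions, because the responses and the interaction come from the same arrays.

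**Figure D1:**
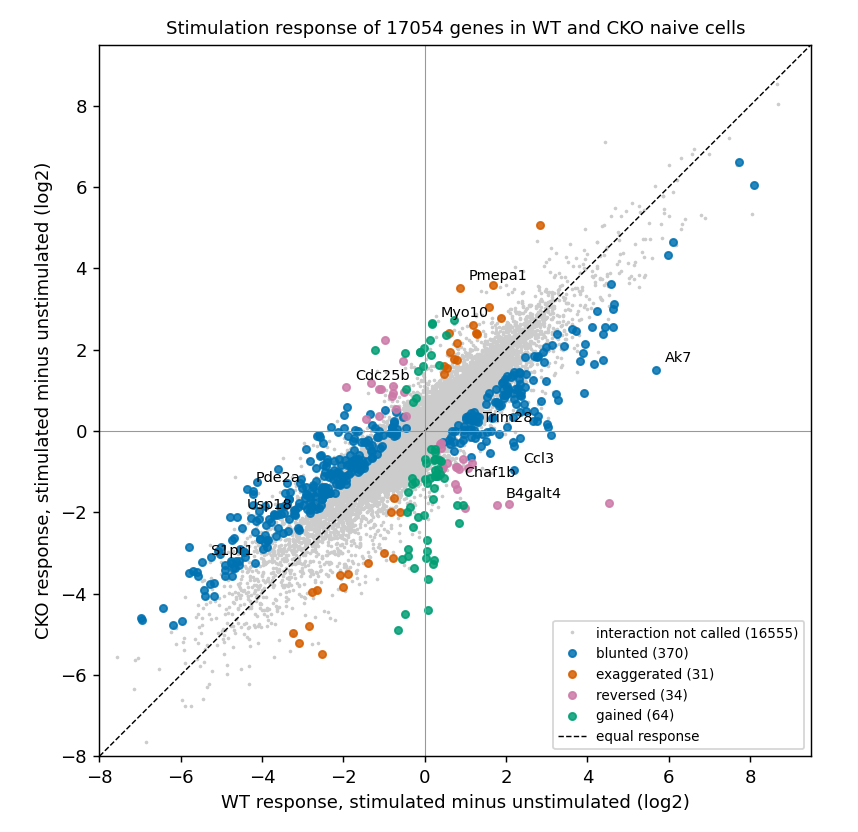
Stimulation response in WT cells (horizontal axis, log2) against that in CKO cells (vertical axis, log2), one point a gene. Grey points are the 16555 genes with no called interaction, coloured points the 370 blunted, 31 exaggerated, 34 reversed and 64 gained genes, and the dashed line marks equal responses.

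The number of called genes moved with the arrays and the background correction. Leaving out 1 array gave 268 to 737 called genes, with 307 without WT unstimulated replicate 3, 332 without WT stimulated replicate 2, 309 without WT stimulated replicate 3, 289 without CKO unstimulated replicate 2, 332 without CKO unstimulated replicate 3, 270 without CKO stimulated replicate 1 and 268 without CKO stimulated replicate 2. With normexp background correction 71 genes were called. With only the 2 slides that hold all 4 groups, and so 2 arrays a group, limma called 0 genes, with 4800 at an unadjusted p under 0.05, and every call named below was lost there.

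A tilt toward smaller responses was also seen in genes chosen without regard to genotype. Among 3118 genes induced more than 2-fold on average over both genotypes, the median interaction was -0.12, and 89 called genes opposed the response against 22 that went with it. In the 3416 genes repressed more than 2-fold on average it was 0.28, with 197 called genes opposed to the response and 33 along it. Among all 499 called genes, whatever the size of their response, 385 opposed their average response and 114 went with it. Values for single replicate numbers combine same-numbered arrays, which are not known to be matched. For replicate 1 the unstimulated arrays came from mice of 6 weeks and the stimulated ones from mice of 7 weeks. The repressed genes had medians of 0.32, 0.32, 0.20 and 0.28 for replicates 1 to 4, each on its own slide or pair of slides. For the induced genes these were -0.22, -0.08, -0.22 and -0.01, and the overall median turned to 0.041 with quantile normalization and to 0.038 with the authors' normalized values.

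More of the blunted genes differed between the genotypes after stimulation than at rest. Among the 370 blunted genes, 225 were called between CKO and WT in stimulated cells only, 75 in unstimulated cells only and 70 in both. For the blunted induced genes the median CKO minus WT difference was 0.31 at rest and -0.83 after stimulation, and for the blunted repressed genes it was -0.32 at rest and 0.88 after stimulation. Over all genes, 19.4% were called between the genotypes at rest (7.58% higher and 11.8% lower in CKO) and 25.9% after stimulation (11.6% higher and 14.3% lower). Exaggerated and gained genes were more mixed, as 14 of 31 and 27 of 64 were called in unstimulated cells only.

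**Figure D2:**
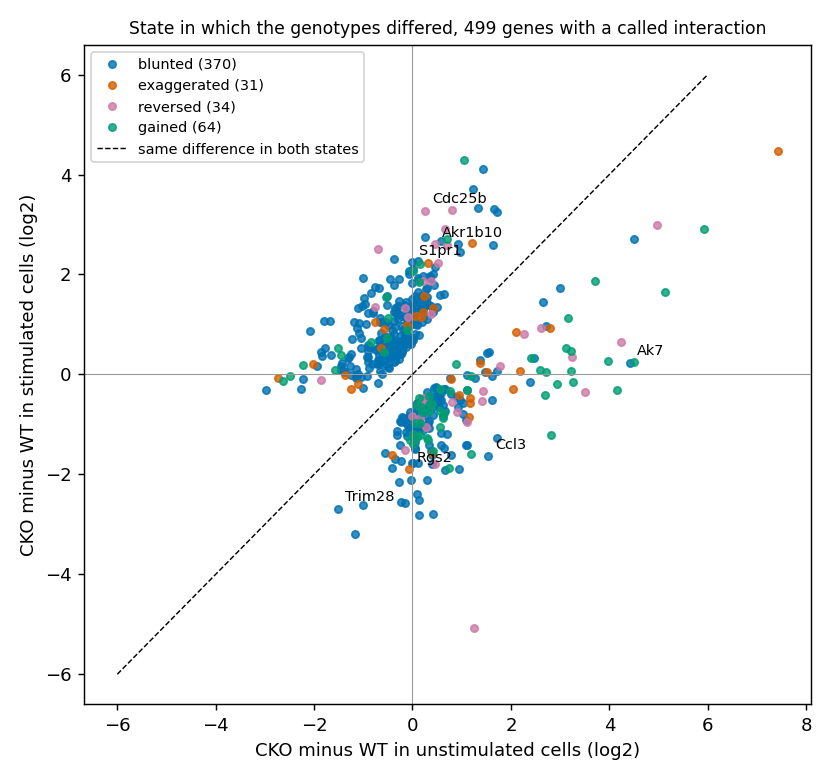
CKO minus WT difference (log2) in unstimulated cells (horizontal axis) and in stimulated cells (vertical axis) for the 499 genes with a called interaction, coloured by class. Points on the dashed line would have the same difference in both states, and 225 of the 370 blunted genes were called in stimulated cells only.

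Of 41 DNA replication genes, 14 were called with a lower interaction, all of them blunted, against 1.25% of all genes called lower. In the list 39 members rose in WT and 32 in CKO, and all 41 had a negative interaction. The median response was 2.00 in WT and 1.18 in CKO, and the median interaction -0.74 against -0.01 for all genes. The genotypes were close at rest, where 2 members were lower in CKO, and apart after stimulation, where 37 were. Of all genes, 11.8% were lower in CKO at rest and 14.3% after stimulation.

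Gins1, a subunit of the GINS complex of the replicative helicase, had log2 levels of -2.17, -1.45, -2.00 and -1.72 in unstimulated WT cells and 2.29, 2.31, 2.31 and 2.14 in stimulated WT cells. CKO cells started at -1.64, -1.72, -1.93 and -1.83 and reached 0.91, 0.83, 0.51 and 0.89. The unstimulated groups overlapped and the stimulated groups did not, and induction was 17.2-fold in WT against 5.92-fold in CKO. The interaction was -1.53 ± 0.21 with a limma adjusted p of 0.00135.

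Mcm5, a subunit of the MCM helicase, lay between 1.94 and 2.27 on all 8 unstimulated arrays. It rose to 5.28, 5.44, 5.48 and 5.40 in WT and to 4.58, 4.37, 4.23 and 4.44 in CKO, 2 sets that did not overlap. Its interaction was -0.88 ± 0.15, with a limma adjusted p of 0.00598, and this call was lost with normexp background correction.

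Lig1, the ligase that joins Okazaki fragments, rose by 1.68 in WT and by 0.35 in CKO. Its stimulated arrays read 4.02, 4.07, 3.86 and 4.16 in WT and 3.03, 2.89, 2.69 and 3.07 in CKO, without overlap. Other called members were Orc1 and Orc6 of the origin recognition complex (interactions of -1.55 and -1.17), the licensing factor Cdt1 (-0.80), the MCM subunits Mcm4 (-1.09) and Mcm7 (-0.95), the primase Prim1 (-0.92), the ribonucleotide reductase subunit Rrm1 (-0.72) and Uhrf1 (-1.27). Tk1, Mcm10 and Cdc6 had larger interactions of -1.80, -1.75 and -1.64 but wider errors of 0.47, 0.50 and 0.52, and were not called. Between 9 and 18 members were called when 1 array was left out, the lowest count being without WT stimulated replicate 2, and 5 were with normexp background correction. Uhrf1 lost its call in 9 of the fits that left out 1 array. Members other than Gins1, Mcm4, Mcm5, Lig1 and Uhrf1 were picked after their values were seen.

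The promoters of these genes carry E2F-type letters in some cases. In the 250 bases before the start of transcription, TTTCGCGC or TTTGGCGC on either strand was found in 7 of the 34 members with a RefSeq entry, against 0.759% of all 27025 genes with an entry and 1.4% of the 9743 tested genes with one. A promoter with either string was counted once. The median interaction was -0.86 for the 7 members with a match and -0.72 for the 27 without. The 2 matched members with the largest interactions are shown, from RefSeq on GRCm38.p6, with matches in capitals, as stretches at chr4:108579371-108579453 (plus strand) for Orc1 and chr17:56304072-56304191 (plus strand) for Uhrf1.
Orc1: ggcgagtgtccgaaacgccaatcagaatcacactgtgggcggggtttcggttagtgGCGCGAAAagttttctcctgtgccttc
Uhrf1: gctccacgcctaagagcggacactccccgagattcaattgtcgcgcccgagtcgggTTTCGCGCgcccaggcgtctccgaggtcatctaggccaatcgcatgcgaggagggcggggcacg

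Fewer members were called in the G1 and mitotic lists. Their counts stand against 1.25% of all genes called lower and 1.67% called higher. Ccne1, cyclin E1, which partners Cdk2 at entry into S phase, rose by 1.65 in WT and had a CKO response of 0.31 that was not called. Its arrays read 2.84, 3.08, 2.66 and 2.87 in stimulated WT and 1.17, 1.51, 0.72 and 1.27 in stimulated CKO cells, so that the stimulated groups did not overlap. Its interaction was -1.34 ± 0.26 with a limma adjusted p of 0.0119. Ccne2 (-1.76) and the transcription factor E2f3 (-0.80) were the other called members among 28 genes of the G1 list, whose median was -0.18, with 10 positive and 18 negative interactions. Of 48 mitosis and spindle genes, 1 was lower and 0 higher in CKO at rest, and 27 were lower and 1 higher after stimulation. Of all genes, 11.8% were lower at rest and 14.3% after stimulation. In this list 44 had a negative interaction, with a median of -0.84, and 24 had an unadjusted p under 0.05, against 16.3% of all genes. The interaction was called lower for 4, among them the checkpoint gene Mad2l1 (-1.41) and the kinase Aurka (-0.98), and higher for 1. Between 1 and 7 were called lower when 1 array was left out, with 1 without CKO stimulated replicate 2, 7 without WT unstimulated replicate 2 and 2 without each of 8 other arrays, and 0 with normexp background correction. Ccne2 was not called in 9 of those fits, and Aurka was not called without CKO stimulated replicate 2. Cdk1 (-1.73 ± 0.70) and Mki67 (-0.39 ± 0.47) were not called.

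Histone genes stood out among the genes called lower, and were therefore listed after their values were seen and are given without a test of the group. The list holds 33 measured genes picked by symbol (H1f, H2ac, H2bc, H3c, H4c and older Hist names). Variant genes such as H2aj, H2ax and H2az were left out. Of the 33, 11 were called lower and 0 higher, against 1.25% and 1.67% of all genes. The median interaction was -0.76, against -0.01 for all genes. The median response was 0.10 in WT and -0.95 in CKO. H3c1, a histone H3 gene, read 0.40, 0.94, 0.91 and 1.11 in unstimulated and 1.47, 1.53, 1.74 and 1.83 in stimulated WT cells. In CKO cells it read 1.15, 1.29, 1.34 and 1.40 before and -0.10, -0.11, -0.48 and 0.11 after stimulation. The gene rose in WT and fell in CKO, with groups that did not overlap within either genotype, and its interaction was -2.24 ± 0.23 (limma adjusted p 0.000133). H1f1, a linker histone, was at -0.98 to 0.03 in unstimulated and -0.55 to -0.37 in stimulated WT cells, and fell from between -0.25 and 0.50 to between -2.36 and -1.81 in CKO cells. The probes of closely similar histone genes may share signal, so that single members are uncertain. Between 6 and 12 members were called lower when 1 array was left out, with 6 without WT stimulated replicate 2 or 3 and 7 without each of 6 other arrays. H1f1 lost its call with normexp background correction.

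Chaf1b, a subunit of the CAF-1 complex that places histones on newly made DNA, was also reversed. It rose by 0.76 in WT, from 2.44, 2.43, 2.11 and 2.65 to 3.10, 3.34, 3.06 and 3.15. In CKO cells it fell by 1.32, from 3.70, 3.22, 3.49 and 3.67 to 2.32, 2.30, 1.79 and 2.40. The CKO arrays were the higher ones at rest, where the 2 genotypes did not overlap, and the lower ones after stimulation. The interaction was -2.07 ± 0.22 with a limma adjusted p of 0.000241.

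The lists for ribosome biogenesis, glycolysis, sterol synthesis, respiration and heat shock proteins had no called interactions. With 2.93% of all genes called, few calls were to be found in lists of this size. All 40 ribosome biogenesis genes were measured, 39 rose in each genotype, and 0 were called in the interaction by limma, with 2 at an unadjusted p under 0.05. Their median response was 2.13 in WT and 2.18 in CKO. Of the 40, 19 were called lower in CKO at rest and 17 after stimulation, against 11.8% and 14.3% of all genes, and 0 were called higher in either state. Glycolysis (20 genes), sterol synthesis (27), mitochondrial respiration subunits (28) and heat shock proteins (24) also had 0 called members by limma. They had 6, 7, 0 and 2 members at an unadjusted p under 0.05, against 16.3% of all genes. Across scalings the median of the ribosome list ran from -0.16 with normexp background correction to 0.19 with quantile normalization. Myc had responses of 2.03 in WT and 1.98 in CKO and an interaction of -0.05 ± 0.23, which was not called.

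**Figure D3:**
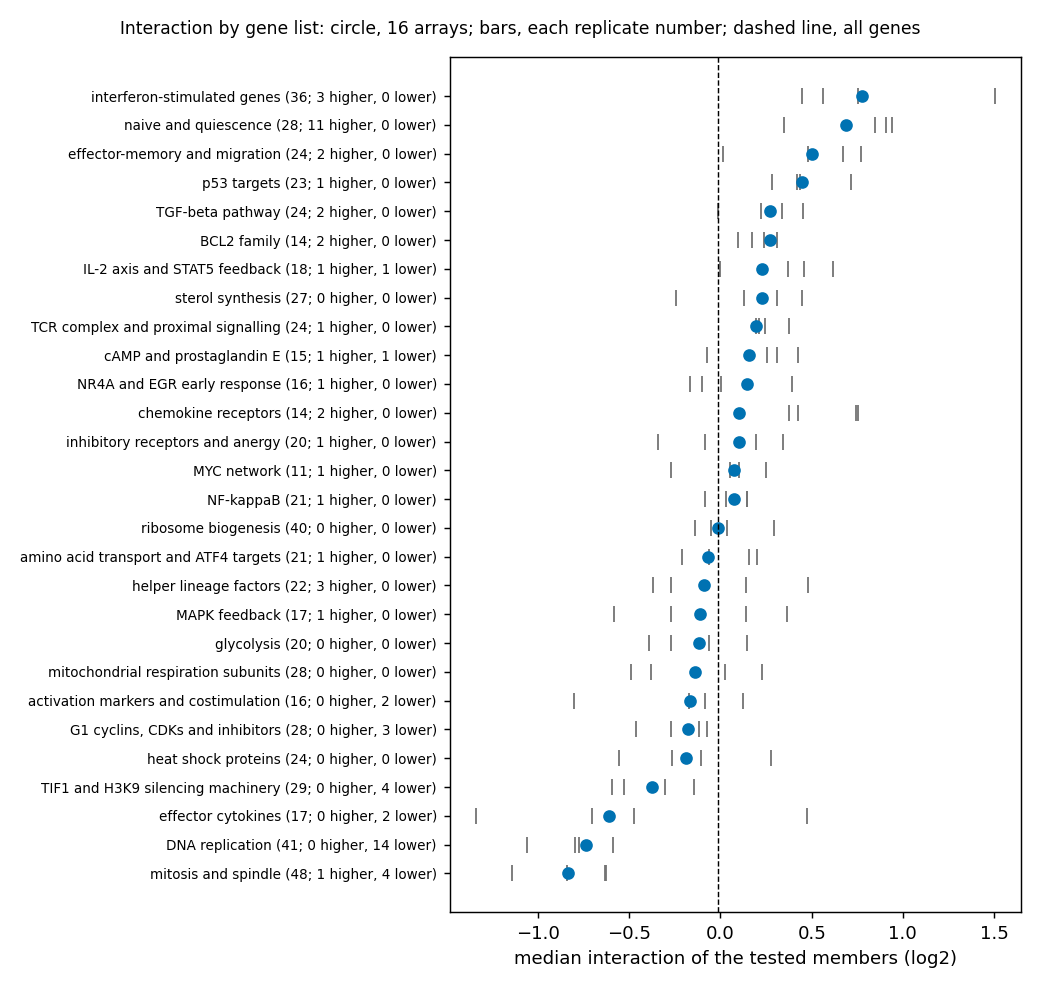
Median interaction (log2) of the tested members of each of 28 gene lists, with the number of members and of those called higher and lower in brackets. Circles use all 16 arrays, grey bars each replicate number alone, and the dashed line is the median of all genes at -0.01. DNA replication lay at -0.74 and interferon-stimulated genes at 0.77.

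Of 28 genes of the naive and quiescent state, 11 were called with a higher interaction (against 1.67% of all genes), 10 of them blunted. In the list 21 members fell in WT and 23 in CKO. The median response was -2.36 in WT and -1.72 in CKO, and the median interaction 0.69. At rest 8 members were lower and 1 higher in CKO than in WT, against 11.8% and 7.58% of all genes. After stimulation 14 were higher and 2 lower, against 11.6% and 14.3% of all genes.

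S1pr1, the receptor for sphingosine 1-phosphate that lets T cells leave lymphoid organs, had log2 levels of 6.79, 6.17, 5.83 and 6.62 in unstimulated WT and 6.30, 6.34, 6.64 and 6.08 in unstimulated CKO cells. After stimulation it fell to 0.99, 0.19, 0.45 and 1.84 in WT and to 3.14, 3.22, 2.55 and 3.57 in CKO. The resting groups overlapped, and each stimulated CKO array was above each stimulated WT array. The fall was 44.7-fold in WT and 9.32-fold in CKO, with an interaction of 2.26 ± 0.46 and a limma adjusted p of 0.0169. This call was lost with normexp background correction and without both CKO replicate 2 arrays.

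Satb1, a chromatin organiser of T cells, fell by 2.12 in WT and by 1.03 in CKO. Its stimulated arrays were 3.70, 3.87, 3.41 and 3.69 in WT and 4.79, 4.56, 4.40 and 4.50 in CKO, without overlap. Foxo1, the transcription factor upstream of Klf2 and Il7r, fell by 2.11 in WT and by 1.30 in CKO, with interactions of 0.88, 0.79, 0.73 and 0.84 for replicates 1 to 4. Both lost their calls with normexp background correction. The IL-7 receptor Il7r (2.07 ± 0.48), Txnip (2.07 ± 0.42), Klf3 (1.41 ± 0.33), Pik3ip1 (1.36 ± 0.33) and Tsc22d3 (1.31 ± 0.31) were called as well, the last 3 of them picked after their values were seen. The Il7r call was lost in most of the fits that left out 1 array. Klf2 had an interaction of 1.50 ± 0.42 with a limma adjusted p of 0.0696, and another Klf2 probe gave -0.00. Ccr7 (-0.25 ± 0.30) and Tcf7 (0.03 ± 0.37) had small interactions that were not called. Between 5 and 13 members were called when 1 array was left out, and over 7 were called only without WT unstimulated replicate 4, WT stimulated replicate 4, CKO stimulated replicate 3 or CKO stimulated replicate 4. The count was 1 with normexp background correction.

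Most interferon-stimulated genes fell with stimulation, 32 of 36 in WT and 29 in CKO. The interaction was called higher for 3 of the 36, against 1.67% of all genes, and was positive in 33. Among 1402 genes repressed by more than 2 log2 units on average, 9.56% were called, with a median interaction of 0.37. Of these calls, 120 opposed the response and 14 went with it. The share of calls in the list was near that of these strongly repressed genes. The median response was -2.89 in WT and -1.90 in CKO, with a median interaction of 0.77 that was 1.50, 0.56, 0.45 and 0.76 for replicates 1 to 4. After stimulation 10 members were higher in CKO than in WT and 2 were lower, against 11.6% and 14.3% of all genes.

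Usp18, a protease that removes Isg15 and dampens interferon signalling, had levels of 2.37, 2.50, 2.63 and 1.86 in unstimulated WT and 2.50, 2.48, 2.71 and 2.66 in unstimulated CKO cells. After stimulation it was at -2.73, -2.01, -2.34 and -2.02 in WT and at 0.92, 0.41, 0.10 and 0.48 in CKO. The stimulated groups were more than 2 log2 units apart, and the fall was 24.4-fold in WT and 4.32-fold in CKO. The interaction was 2.50 ± 0.29 with a limma adjusted p of 0.000449. Oas1a, which makes the 2-5A that activates RNase L, fell by 5.27 in WT and by 3.10 in CKO, with stimulated levels of -3.98 to -2.83 in WT and -2.04 to -0.91 in CKO. The third called member was Irf7 (1.44 ± 0.32), and Mx1 (1.75 ± 0.53) and Isg15 (0.91 ± 0.51) were not called. Ifih1 was one of the 3 members on the other side, at -1.01 ± 0.30, and was not called. Oas1a was not called with normexp background correction, and Irf7 neither there nor in 6 of the fits that left out 1 array. Between 2 and 5 members were called when 1 array was left out, with 5 without WT unstimulated replicate 4 or CKO unstimulated replicate 3.

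A pair of GAAA letters spaced by 2 bases, on either strand, a pattern like the interferon response element, was found in the 250 bases before the start of 14 of the 25 list members with a RefSeq entry. It was held by 3.46% of all genes with an entry and 3.3% of the tested ones. The median interaction was 0.64 with a match and 0.87 without. The 2 matched members with the largest interactions were Oas1a, at chr5:120907526-120907595 (minus strand), and Ifit1, at chr19:34640748-34640869 (plus strand), where the interaction of 1.07 was not called. Both are shown from RefSeq on GRCm38.p6 with matches in capitals.
Oas1a: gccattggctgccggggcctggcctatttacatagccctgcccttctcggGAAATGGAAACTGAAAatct
Ifit1: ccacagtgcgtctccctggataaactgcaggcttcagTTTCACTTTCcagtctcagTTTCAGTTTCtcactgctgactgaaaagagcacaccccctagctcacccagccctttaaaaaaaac

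**Figure D4:**
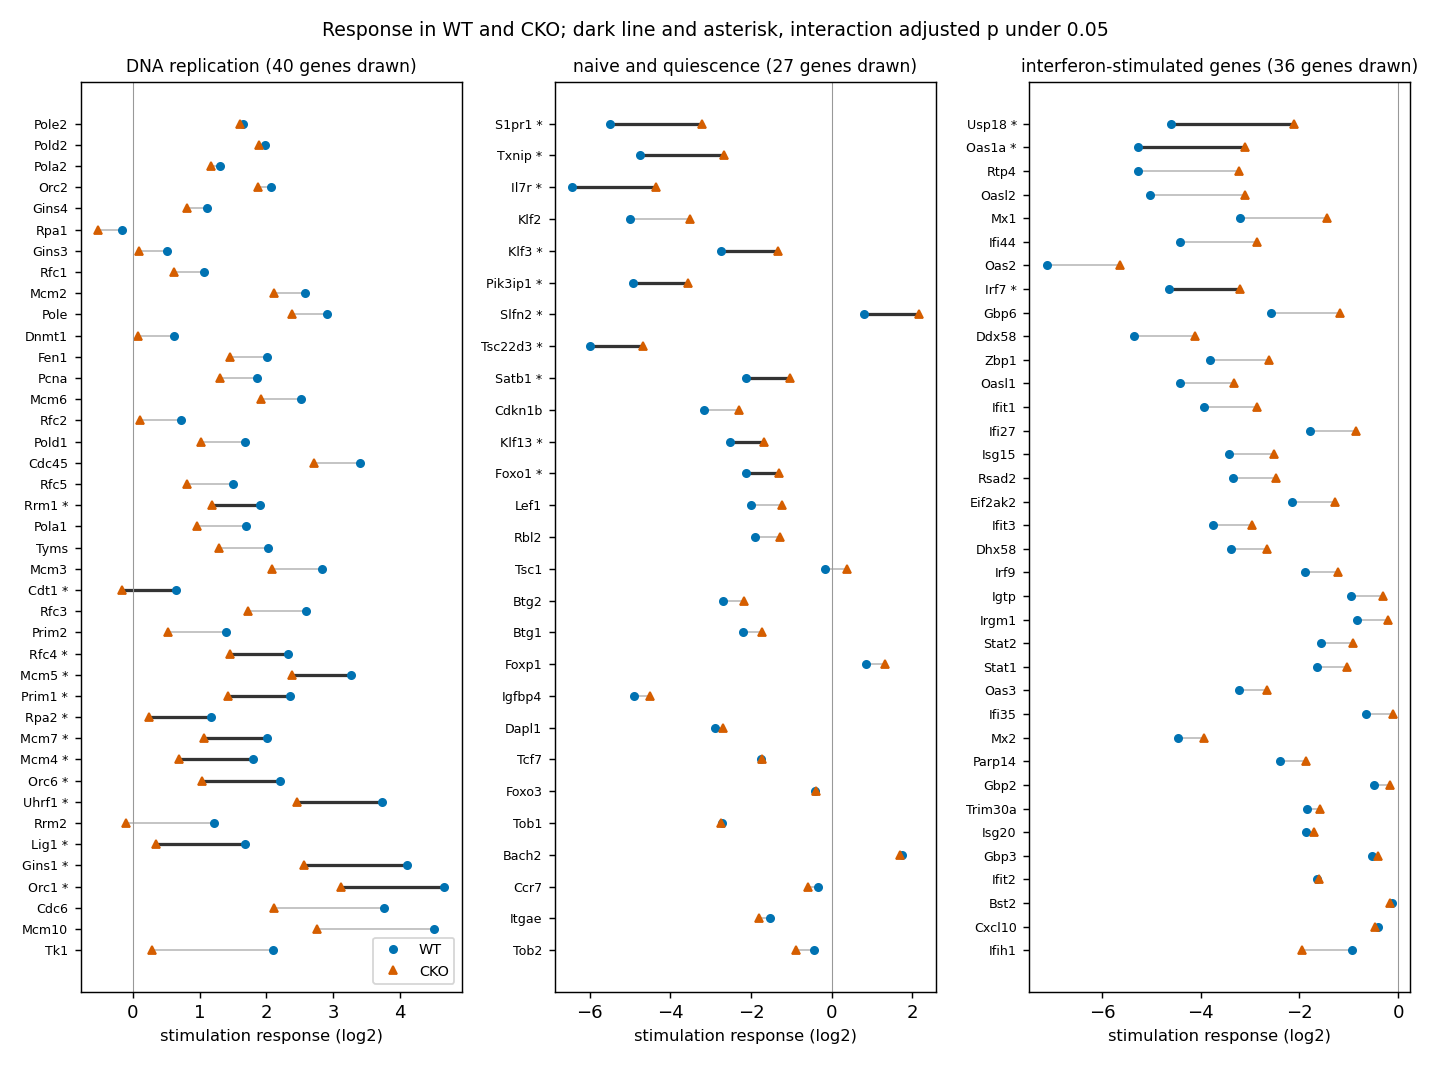
Stimulation response (log2) in WT (circles) and CKO (triangles) of the members drawn from 3 gene lists. Dark lines and asterisks mark interactions with an adjusted p under 0.05, which were 13 of the 40 DNA replication, 10 of the 27 naive and quiescence and 3 of the 36 interferon-stimulated genes drawn. Each DNA replication gene drawn lay further right in WT.

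The IL-2 axis had 2 called members of 18, against 2.93% of all genes. They were Il2ra and the survival factor Bcl2 (0.88). The Bcl2 call was lost with normexp background correction, with slide as a fixed block and in 8 of the 16 fits that left out 1 array. Il2, the growth factor that activated T cells secrete, was at -4.25, -4.40, -4.97 and -5.17 in unstimulated WT and at -5.20, -5.96, -5.88 and -5.40 in unstimulated CKO cells, where it was well above background on 3 and 2 of 4 arrays. After stimulation it reached -0.13, 0.12, 0.08 and -0.10 in WT and -0.17, -0.60, -0.52 and 0.75 in CKO, which overlapped. The interaction of 0.79 ± 0.40 was not called (limma adjusted p 0.359). Il2ra, the IL-2 receptor alpha chain CD25, rose by 7.72 in WT and 6.62 in CKO to levels that overlapped (3.13 to 3.48 and 3.11 to 3.49). Its unstimulated levels were -4.70 to -4.18 in WT and -3.65 to -3.10 in CKO, so that its interaction of -1.10 ± 0.21 lay in the resting state. That call was lost with normexp background correction, quantile normalization, the authors' normalized values, the mean of all kept probes and without both CKO replicate 2 arrays.

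Several fixed activation genes had no called interaction. These were Cd69 (0.13 ± 0.22), Nr4a1 (0.93 ± 0.33), Egr2 (0.11 ± 0.20), Irf4 (-0.60 ± 0.30), Cd40lg (-1.33 ± 0.53), Tnf (0.04 ± 0.42) and Ifng (-1.17 ± 0.64). The helper lineage factors Tbx21 (-2.56 ± 0.72) and Eomes (-2.46 ± 0.74) had large but variable values with limma adjusted p of 0.0727 and 0.0921. Of the 22 helper lineage factors, 3 were called higher, Foxp3 among them, and 0 lower, against 1.67% and 1.25% of all genes. The list had 10 positive and 12 negative interactions and a median of -0.09. With normexp background correction 0 were called higher. Of 16 activation markers and costimulatory genes, Tnfrsf4 (OX40, -1.29) and Cd200 (-1.10) were called lower, against 1.25% of all genes. These calls were lost in 5 and 13 of the 16 fits that left out 1 array and with normexp background correction.

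The chemokines Ccl3 and Ccl4, which attract other immune cells, were the called members among 17 effector cytokines. Both were called lower, against 1.25% of all genes. Ccl4 rose from -0.84, 0.67, -0.26 and 0.78 to 3.67, 4.16, 4.18 and 3.99 in WT, and was at 2.27, 2.16, 1.31 and 1.45 before and 2.62, 2.33, 2.16 and 3.82 after stimulation in CKO cells. CKO arrays were above all WT arrays at rest, and after stimulation only CKO replicate 4 came between the WT arrays. The interaction was -2.98 ± 0.56 with a limma adjusted p of 0.0106. Ccl3 had a WT response of 2.21 and a CKO response of -0.96 that was not called, with an interaction of -3.16 ± 0.65. Both calls were lost without both CKO replicate 2 arrays.

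Foxp3, the regulatory T cell factor, was low in these CD25- cells. It read -2.46, -2.57, -3.15 and -2.94 in unstimulated WT cells and fell to -4.14, -3.87, -3.61 and -3.41 with stimulation. In CKO cells it was at -1.39, -1.77, -2.34 and -1.80 and then at -1.65, -1.18, -1.35 and -1.06. CKO arrays were above the WT arrays in both states, and the CKO response of 0.51 was not called. The interaction was 1.49 ± 0.31 with a limma adjusted p of 0.0212, and the call was lost with normexp background correction, with slide as a fixed block, without CKO stimulated replicate 2 and without both CKO replicate 2 arrays. In bulk samples, a different share of Foxp3-positive cells and a different amount of Foxp3 RNA in each cannot be told apart.

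The largest interactions among blunted genes measured in all 4 groups were not all in known T cell programs. Ak7, an adenylate kinase, rose from -4.29, -3.84, -3.73 and -4.01 to 1.50, 1.75, 1.86 and 1.77 in WT. It was already at 0.80, 0.39, 0.01 and 0.59 in unstimulated CKO cells and went to 1.96, 2.02, 1.57 and 2.28. The resting groups were far apart and the stimulated groups overlapped, and the interaction was -4.18 ± 0.27 with a limma adjusted p of 2.85e-06. Eea1, an early endosome tether, rose by 4.17 in WT and by 1.65 in CKO (interaction -2.52 ± 0.33).

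Among blunted repressed genes, Pde2a, a phosphodiesterase that breaks down cAMP and cGMP, fell in WT from 0.89, 1.02, 0.84 and 1.05 to -3.75, -3.43, -3.73 and -2.80. In CKO cells it went from -1.24, -0.76, -1.05 and -1.46 to -2.81, -2.23, -2.55 and -2.66. It was lower in CKO at rest, without overlap, and higher by 0.87 after stimulation, where WT replicate 4 lay among the CKO arrays. The interaction was 2.94 ± 0.29, with a limma adjusted p of 0.000133. Ntrk3, a neurotrophin receptor, and Nrp2, a neuropilin, had interactions of 2.87 ± 0.34 and 2.53 ± 0.44, and both lost their calls with normexp background correction. Bbc3, the proapoptotic BH3-only protein PUMA, fell by 2.44 in WT and by 0.86 in CKO (interaction 1.58 ± 0.27), and its unstimulated level was lower in CKO by 1.05 log2 units.

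Exaggerated genes were few. Psrc1, a microtubule-associated protein, rose by 2.83 in WT and by 5.06 in CKO, with an interaction of 2.23 ± 0.37. Its stimulated levels overlapped at 1.31 to 2.00 and 1.79 to 2.06, and its resting levels did not, at -1.93 to -0.73 in WT and -3.50 to -2.53 in CKO. Pmepa1, a TGF-beta target that restrains Smad signalling, was likewise lower in unstimulated CKO cells (-4.75, -3.80, -4.16 and -4.14 against -1.34, -0.91, -1.32 and -2.35) and overlapped WT after stimulation. Pmepa1 had an interaction of 2.67 ± 0.49, and both lost their calls with normexp background correction.

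Rgs2, a regulator of G protein signalling, was exaggerated in the stimulated state. It was at 6.49, 6.14, 6.14 and 6.18 in unstimulated WT and 5.94, 5.99, 6.35 and 6.38 in unstimulated CKO cells. It fell to 4.30, 4.29, 4.40 and 3.88 in WT and to 2.69, 2.48, 2.02 and 2.13 in CKO, a 4.06-fold and a 14.3-fold fall. The resting groups overlapped and the stimulated groups did not (interaction -1.82 ± 0.24, limma adjusted p 0.00131). Jmy, a p53 cofactor and actin nucleator, fell by 1.39 in WT and by 3.25 in CKO from a level 2.79 higher in CKO at rest.

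Cdc25b had the largest interaction among reversed repressed genes measured in all 4 groups. The gene encodes a phosphatase that activates cyclin-dependent kinases at entry into mitosis. It fell in WT from 2.99, 3.07, 2.68 and 3.35 to 1.00, 0.95, 1.05 and 1.32, and rose in CKO from 3.49, 3.25, 3.23 and 3.13 to 4.44, 4.58, 3.78 and 4.64. The resting groups overlapped, and after stimulation CKO arrays were 9.69-fold above WT. The interaction was 3.03 ± 0.27 with a limma adjusted p of 7.47e-05, and the other Cdc25b probes gave 2.82 to 3.38. It was the member of the mitosis list called higher.

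The aldo-keto reductases Akr1b10 and Akr1b8, which reduce aldehydes, were both reversed. Akr1b10 fell from 1.67, 1.84, 1.57 and 1.75 to 0.72, 0.74, 0.44 and 0.39 in WT and rose from 2.25, 2.17, 2.19 and 2.01 to 3.51, 3.40, 3.01 and 2.78 in CKO. The 4 groups did not overlap, and the interaction was 2.15 ± 0.22 with a limma adjusted p of 0.000133. Akr1b8 fell by 0.79 in WT and rose by 1.11 in CKO (interaction 1.90 ± 0.22). As the genes are close in sequence, their probes may share signal.

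Peli1, a ubiquitin ligase that limits T cell activation, fell from 4.90, 4.60, 4.82 and 4.99 to 3.40, 3.30, 3.43 and 3.44 in WT. In CKO cells it was at 2.92, 2.83, 2.96 and 3.20 and rose to 3.23, 3.19, 3.16 and 3.51. The resting groups were apart and the stimulated groups overlapped, with an interaction of 1.73 ± 0.17 (limma adjusted p 0.000131). B4galt4, a galactosyltransferase, rose by 1.77 in WT and fell by 1.82 in CKO, from a level 4.23 higher in CKO at rest (interaction -3.59 ± 0.34).

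**Figure D5:**
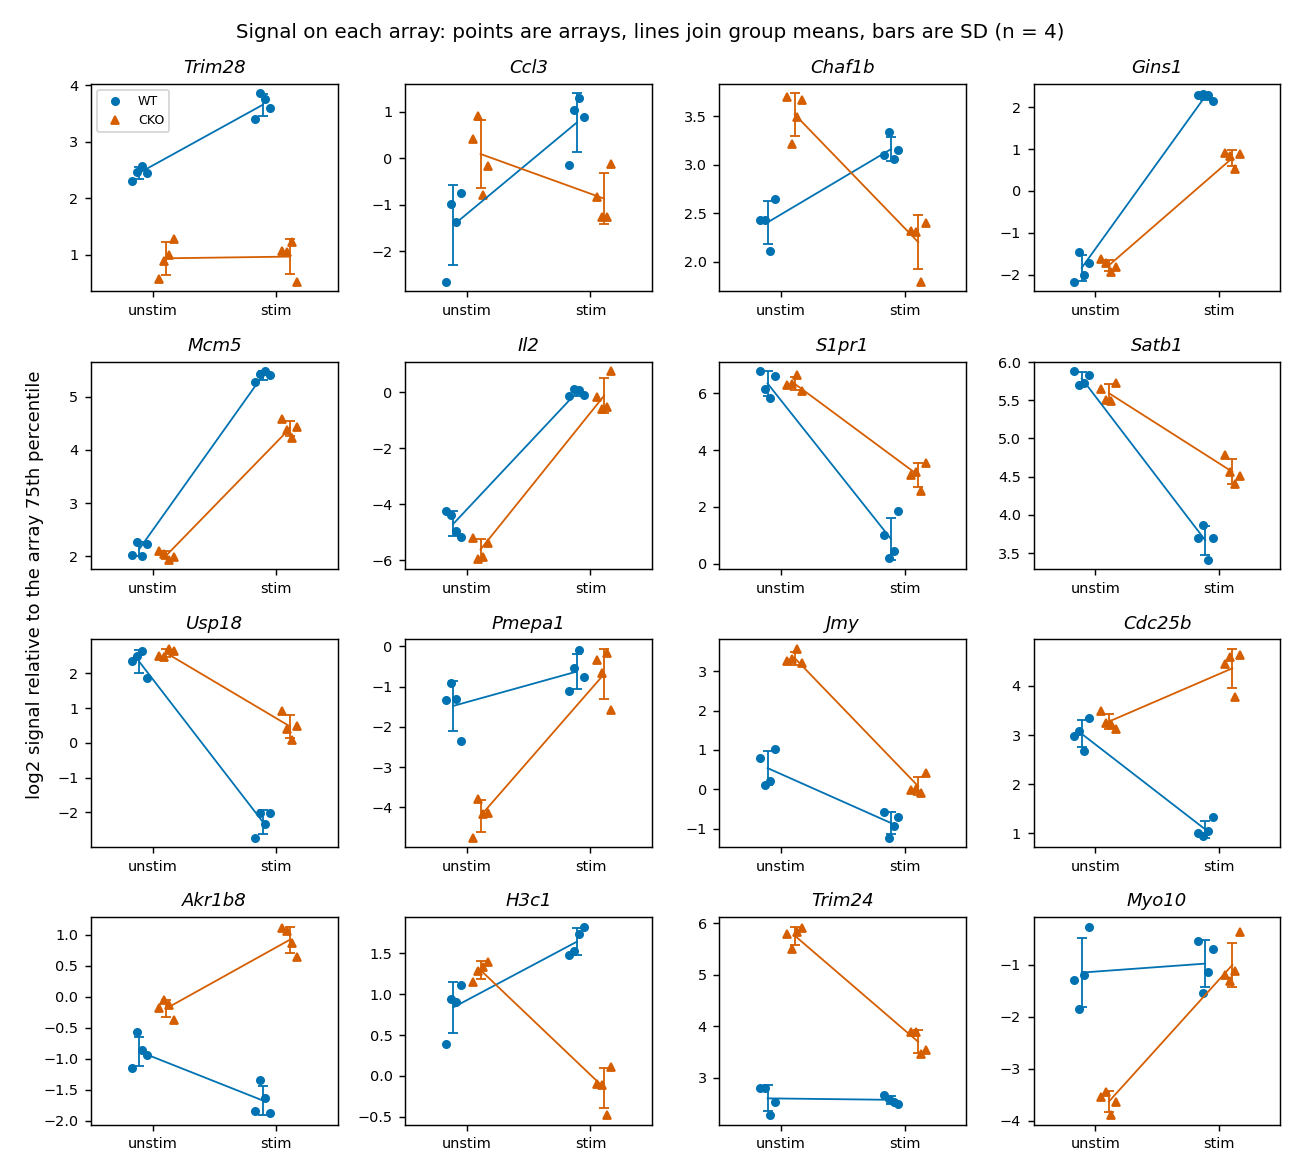
Level on each array (log2 signal relative to the array's 75th percentile) of 16 genes in unstimulated and stimulated cells, WT as circles and CKO as triangles, with lines between group means and bars of 1 SD (n = 4). Trim28 rose in WT alone, Gins1 and Mcm5 rose less in CKO, S1pr1 and Usp18 fell less, and Cdc25b, Akr1b8 and H3c1 moved in opposite directions.

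Gained genes had a response that was called in CKO alone. Trim24, which encodes TIF1alpha, a relative of Trim28, was at 2.80, 2.79, 2.26 and 2.53 in unstimulated and 2.67, 2.59, 2.52 and 2.50 in stimulated WT cells. In CKO cells it fell from 5.79, 5.50, 5.82 and 5.90 to 3.89, 3.88, 3.46 and 3.54. It was higher in CKO than in WT in both states, 8.94-fold at rest and 2.18-fold after stimulation, and the WT groups overlapped. The interaction was -2.03 ± 0.21 with a limma adjusted p of 0.000133. Among 29 genes of the TIF1 and H3K9 silencing list, Trim28, Trim24, Morc3 (-1.15) and Uhrf1 were called lower and 0 higher. Of these, Trim28 is the deleted gene, and Uhrf1 is also counted in the DNA replication list. Of all genes, 1.25% were called lower and 1.67% higher. The list had a median of -0.37.

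Myo10, an unconventional myosin of filopodia, had a response called in CKO alone. It rose there by 2.63, from -3.54, -3.44, -3.90 and -3.65 to -1.21, -1.31, -1.13 and -0.38. Those stimulated levels overlapped the WT arrays, which spanned -1.85 to -0.27 at rest and -1.54 to -0.54 after stimulation. Taf1c, a subunit of the RNA polymerase I factor SL1, also had a response called in CKO alone. It rose there by 2.23, to 2.66 to 3.49 against 0.92 to 1.85 in stimulated WT cells. Rhobtb1 fell by 1.82 in CKO and had a WT response of 0.95 that was not called. All 3 lost their calls with normexp background correction, and Rhobtb1 also without both CKO replicate 2 arrays.

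Some called genes were well above background on 0 arrays of at least 1 group, so no fold is given for them. Lama4, a laminin chain, was well above background on 4 of 4 CKO unstimulated arrays and on 0 of 12 others. Cnr1, a cannabinoid receptor, was so on 4 CKO unstimulated arrays, 1 CKO stimulated array and 0 WT arrays. Pdgfb, a growth factor, was so on 4 WT stimulated arrays, 1 CKO unstimulated array and 0 of the WT unstimulated and CKO stimulated arrays. Rpp25 was detected in this way on the 4 WT stimulated arrays alone, and Trpm1 on all arrays but the 4 WT stimulated ones. All 5 lost their calls with normexp background correction.

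Signal from other cell types moved with stimulation and partly with genotype. The 9 CD4 T cell markers were well above background in every group. The summed linear level of 15 B cell markers, in units of the array's 75th percentile, ran from 10.4 to 37.3 in WT unstimulated, 26.2 to 88.6 in CKO unstimulated, 0.733 to 3.44 in WT stimulated and 3.00 to 8.82 in CKO stimulated arrays. For 17 myeloid and dendritic markers these ranges were 57.2 to 214.5, 77.5 to 415, 5.20 to 23.5 and 8.61 to 148.5, with replicate 2 the highest in each of the 4 groups. None of the 6 marker lists had a called interaction by limma, with 1, 1, 0, 3, 0 and 2 members of the CD4 T, B, myeloid, CD8 and NK, erythroid and stromal lists at an unadjusted p under 0.05. Without both CKO replicate 2 arrays 169 genes were called, of which 167 were among the 499, and the part of these cells in the interactions was not tested.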

How the data were processed

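RNA of 24 samples was hybridised as Cy3-labelled cRNA to 1-colour Agilent arrays, and 16 arrays of naive cells were used. The deposited values are spot intensities, which the scanner software had corrected for background and detrended within each array, per the file headers (Agilent Feature Extraction 9.5, per the submitters' processing notes). Here they were taken to log2, and each array's 75th percentile was subtracted. Control spots and outlier flags were left out, and 25017 of 41174 probes were kept, those well above background on at least 3 of 4 arrays of a group. Of several kept probes of a gene the brightest stood for it, and 22951 probes were named by accession through RefSeq. The 75th percentile of signal was 154 to 372, and 51.8 to 61.2% of probes were well above background. The number of arrays limits the precision.

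Group means were fitted with limma 3.58.1 (lmFit and eBayes, R 4.3.3) and p-values adjusted by Benjamini-Hochberg over all genes. The procedure was also run on simulated data. Noise there was independent between arrays, so that run cannot speak to effects that arrays share. Named genes were a fixed set, up to 6 with the largest interactions in each class and direction among genes above background in all 4 groups, up to 4 dim ones, and up to 4 a list by smallest p. Others are marked as picked after their values were seen, or are called or contrasting members of a list. Members and lists were chosen with earlier results of these data known. Alternatives were other background corrections, normalizations, filters, probe rules, blocks and covariates, array weights, leaving out each array, and the authors' normalized intensities. A few list members counted here are not reported by name.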

Additional observations from a re-analysis of the deposited data

Results flagged for a closer look

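The stimulation response differed between WT and CKO for 499 genes by the interaction term. Among 148 groups of 4 arrays examined for 37 genes, 6 groups (4.05%) held an array far from the other 3, where chance gives about 1 in 20. Eea1 was at -0.12 on CKO unstimulated replicate 1, against 0.04 to 0.07 on the others. Gins1 was at 2.14 on WT stimulated replicate 4, against 2.29 to 2.31. Rgs2 was at 6.49 on WT unstimulated replicate 1, against 6.14 to 6.18. The other 3 were all on CKO stimulated replicate 3. There Chaf1b was at 1.79 against 2.30 to 2.40, B4galt4 at -0.21 against -0.05 to -0.02, and H1f1 at -2.36 against -1.90 to -1.81.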

How the results depend on the processing

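The 499 called genes included 370 blunted, 31 exaggerated, 34 reversed and 64 gained, with median interactions of -0.12 for genes induced and 0.28 for genes repressed on average. With normexp background correction these 7 values were 71, 46, 5, 10, 10, -0.27 and 0.19, and 61 of the 71 genes were shared with the 499. The share of called genes that were higher was 57.1%, and 42.3% with normexp. Quantile normalization gave 52 exaggerated genes and medians of 0.041 and 0.22, and the authors' normalized values gave 51, 0.038 and 0.21, so that the induced median changed sign in both. With no filter on dim probes 230 genes were called, 153 blunted, 10 exaggerated and 22 reversed, and the median of all genes was -0.20. A signal floor gave 786 called, 62 exaggerated and 141 gained genes and a repressed median of 0.21. Array weights gave 2109 called, 1519 blunted, 166 exaggerated, 108 reversed and 315 gained genes. With slide as a fixed block 323 were called, 235 blunted, 18 exaggerated and 20 reversed. The 2 slides that hold all 4 groups gave 0 called genes, and hence 0 in each class, with 4800 at an unadjusted p under 0.05 and an induced median of -0.24. Without both CKO replicate 2 arrays, an alternative chosen after seeing the data, 169 were called, 113 blunted, 12 exaggerated, 18 reversed and 26 gained. The causes were not tested.

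Leaving out 1 array gave 268 to 737 called, 187 to 535 blunted, 17 to 46 exaggerated, 25 to 58 reversed and 37 to 101 gained genes, with medians of -0.16 to -0.09 and 0.22 to 0.31. The replicate block gave 592 called genes, 454 of them among the 499. Same-numbered arrays correlated above 0.1 in 14 of 24 pairs (-0.31 to 0.54 over all 24). Of the 24 pairs, 16 shared a slide. The numbers were not taken to pair the samples throughout. Of 109 named genes called, 20 kept the call under every alternative but the 2-slide fit, and 48 when normexp was also set aside. None of them reversed. Levels not well above background have only bounds.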
